A study of Rattus norvegicus with 6 samples.

Results

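The sarcomeric actins and cardiac troponins examined here are 4 genes of the thin filament of heart muscle, chosen by Ensembl gene ID among the 34052 features of an RNA sequencing table: Actc1 (ENSRNOG00000008536) and Acta1 (ENSRNOG00000017786), which encode the alpha-cardiac and alpha-skeletal actins, and Tnnt2 (ENSRNOG00000033734) and Tnni3 (ENSRNOG00000018250), which encode cardiac troponin T and cardiac troponin I. They were measured in cultured neonatal rat ventricular cardiomyocytes, the heart muscle cells of newborn rats. Erastin (10 µM, 24 h) was given to the cells of 3 libraries, and 3 libraries of control cells carry the label Con. The deposited values are titled erastin against vehicle, but neither the vehicle substance nor a time is named for the control. Erastin stops cells from importing cystine through the antiporter that trades it for glutamate, and so sets off ferroptosis, a form of cell death driven by iron and lipid peroxidation. No genotype, strain or sex is given for either group, and nothing in the labels ties the 3 libraries of a group to separate cultures or animals. The p-values therefore cover the variation among these libraries alone, which may be technical.

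The thin filament is a polymer of actin that carries tropomyosin and the troponin complex. Troponin T anchors the complex to tropomyosin, troponin I holds actin and myosin apart at low calcium, and troponin C releases that block when it binds calcium. The adult heart uses mainly alpha-cardiac actin, while alpha-skeletal actin is also made in the rodent heart around birth and again under load. Cardiac troponin I replaces the slow skeletal form of troponin I during heart development, and cardiac troponins T and I in blood are the clinical markers of heart muscle injury. Transcription of many sarcomere genes depends on serum response factor, which binds a sequence called the CArG box, and on TEAD factors, which bind the MCAT motif.

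The sequences before the start sites of the 4 genes are shown because all 4 genes had lower FPKM after erastin, and the CArG box and MCAT motif are known control elements of muscle genes. All 4 symbols matched an entry in RefSeq (build GRCr8). The 250 bases before the start site are printed 5′ to 3′ on the strand of the gene, with matches to a motif in capitals. They lie at chr3:121271828-121272077 on the minus strand for Actc1, chr19:68784195-68784444 on the minus strand for Acta1, chr13:49818873-49819122 on the plus strand for Tnnt2 and chr1:78342321-78342570 on the plus strand for Tnni3.
Actc1: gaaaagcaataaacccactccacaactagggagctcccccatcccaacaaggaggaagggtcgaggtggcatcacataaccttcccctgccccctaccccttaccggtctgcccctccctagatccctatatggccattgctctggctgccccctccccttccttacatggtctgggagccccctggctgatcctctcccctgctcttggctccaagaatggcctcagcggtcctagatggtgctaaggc
Acta1: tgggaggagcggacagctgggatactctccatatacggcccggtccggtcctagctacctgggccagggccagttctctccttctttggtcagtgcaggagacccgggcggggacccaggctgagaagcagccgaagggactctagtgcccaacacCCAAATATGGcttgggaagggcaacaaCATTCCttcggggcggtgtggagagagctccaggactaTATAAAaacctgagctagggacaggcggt
Tnnt2: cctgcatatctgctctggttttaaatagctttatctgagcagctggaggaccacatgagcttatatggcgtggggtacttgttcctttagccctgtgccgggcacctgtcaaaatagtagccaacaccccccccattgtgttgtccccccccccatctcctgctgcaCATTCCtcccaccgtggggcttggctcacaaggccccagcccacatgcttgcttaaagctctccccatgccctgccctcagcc
Tnni3: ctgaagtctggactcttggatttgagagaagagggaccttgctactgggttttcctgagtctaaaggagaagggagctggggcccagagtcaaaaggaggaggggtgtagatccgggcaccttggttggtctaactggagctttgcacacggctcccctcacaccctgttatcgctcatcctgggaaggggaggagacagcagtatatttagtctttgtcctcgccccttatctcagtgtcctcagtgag

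Motifs were searched on both strands from 250 bases before to 50 bases after the start site. The 3 motifs were the CArG box, MCAT (CATTCC) and the TATA box (TATAAA), and none of the matches overlapped another. Acta1 held all 3, with CCAAATATGG as its CArG box at bases -94 to -85, MCAT at -67 to -62 and the TATA box at -29 to -24. Actc1 held a CArG box, CCAAATAAGG, at bases 3 to 12 after the start, outside the stretch printed above. Tnnt2 held MCAT at -83 to -78, and the second start site that RefSeq lists for Tnnt2 held no match. Tnni3 held none of the 3 motifs in this window. Of all 33469 RefSeq windows of the same 300 bases, 1.64% held a CArG box, 14.2% held MCAT and 14.2% held the TATA box. These matches are letters in a window, and binding of a factor was not measured.

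**Figure D1:**
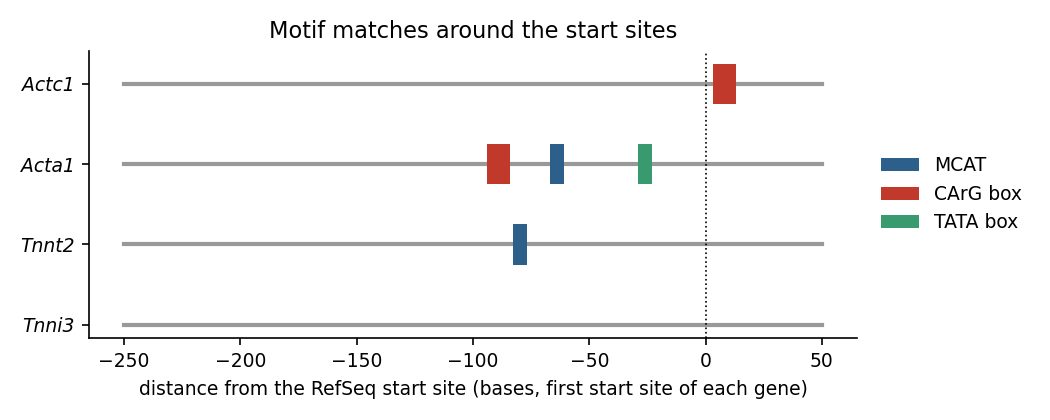
Matches to 3 motifs around the first RefSeq start site of each gene, with the distance from the start site in bases on the horizontal axis and 1 line per gene. Acta1 holds a CArG box, MCAT and a TATA box, Actc1 a CArG box just after the start, Tnnt2 MCAT, and Tnni3 none of them.

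All 4 genes fell in erastin-treated cells on the deposited scale, and 1 of them, Tnnt2, was higher under quantile normalization. In deposited FPKM, Actc1 fell most, with a mean 2.50-fold lower than in control cells. Acta1 and Tnni3 were 2.07-fold and 2.08-fold lower, and Tnnt2 fell least, by 1.32-fold. This order depends on the scaling, since quantile normalization gave log2 fold changes of -0.54 for Actc1, -1.13 for Acta1 and -1.01 for Tnni3. Values are FPKM, which divides the fragments of a gene by its length and by the library total. Comparing levels of different genes therefore depends on the length used for each gene and on how reads were assigned. Of 13576 features tested with limma, 66.4% passed a Benjamini-Hochberg adjusted p of 0.05 and 24.1% passed it with a lower level in erastin, as 4 of these 4 genes did. An adjusted p under 0.05 together with at least a 2-fold fall on the log2 scale was reached by 4.75% of the tested features, and by Actc1, Acta1 and Tnni3. In 26.3% of the tested features every erastin value lay below every control value, as it did in all 4 genes. The median log2 fold change of the 4 genes was -1.06, against 0.13 for all tested features. In these bulk libraries a loss of muscle cells and less of these transcripts per cell cannot be told apart.

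Cells of other types were not analysed here, because the deposited table gives Ensembl IDs without symbols and 0 of its IDs matched the reference table. The gene names used here come from the rule that chose the 4 genes. Actc1 and Tnnt2 were among the 10 most abundant features of every library of both groups, and both are textbook markers of heart muscle cells. Library totals were 11126968 to 12017459 reads in erastin and 11506854 to 14914827 reads in control libraries, and control replicate 2 was the deepest. Centring each library on its median log ratio moved all log2 fold changes down by 0.13. As deposited, 5744 features rose and 3267 fell with limma, and with centred values 4253 rose and 4287 fell, so that 31.6% of the tested features fell. All 4 genes fell as deposited and when centred.

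Actc1 makes the main actin of the adult heart muscle fibre. Its level was 3061, 3198 and 2724 FPKM in erastin replicates 1, 2 and 3, against 7452, 7480 and 7484 FPKM in control replicates 1, 2 and 3. The groups lay far apart, and the lowest control library was above the highest erastin library by more than the whole range of either group. The mean was 2994 ± 244 FPKM in erastin and 7472 ± 17.6 FPKM in control libraries (SD, n = 3 each), 59.9% lower in erastin. On the log2(FPKM + 1) scale the difference was -1.32 with an SE of 0.056 (limma adjusted p = 5.27e-07), or -1.45 when centred. Quantile normalization, which sets values by rank, gave a smaller fall of -0.54 (limma adjusted p = 0.0023). Actc1 ranked 4 in every control library and 7, 7 and 9 in erastin replicates 1, 2 and 3. The fall of -0.54 is thus a step between the values of these ranks. Its p-value does not measure the spread of the Actc1 levels. These levels rest on 45130 to 57220 reads per erastin library and 127690 to 166107 reads per control library.

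The 3 control libraries agreed on Actc1 more closely than the erastin libraries did. The coefficient of variation was 8.15% in erastin and 0.235% in control libraries, where read counting alone gives 0.445% and 0.269%. The erastin libraries thus varied beyond counting error, while the control libraries varied by no more than it. Whether this spread differs between the groups was not tested.

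Acta1 makes the actin of skeletal muscle, which newborn rodent heart muscle also contains. It was at 238, 248 and 200 FPKM in erastin replicates 1, 2 and 3, against 479, 454 and 489 FPKM in control replicates 1, 2 and 3. No value of one group reached the other, and erastin replicate 3 was the lowest library for both actins. Acta1 averaged 229 ± 25.5 FPKM in erastin and 474 ± 17.9 FPKM in control libraries (SD, n = 3 each), 51.8% lower in erastin. This was a log2 fold change of -1.05 with an SE of 0.082 (limma adjusted p = 3.77e-05), or -1.18 when centred. Without erastin replicate 3 it was -0.96, just short of 2-fold. From 3192 to 4285 reads per erastin library and 7920 to 9725 per control library were behind these levels. The coding sequences of the sarcomeric actins are closely alike, and no source used here says how reads that match more than 1 gene were counted, so part of the Acta1 level could come from Actc1 transcripts.

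Tnnt2 makes the troponin subunit that binds tropomyosin. It was at 3892, 3962 and 4083 FPKM in erastin replicates 1, 2 and 3, against 4933, 5335 and 5495 FPKM in control replicates 1, 2 and 3. The groups did not overlap, but the gap between the nearest libraries, erastin replicate 3 and control replicate 1, was the smallest of the 4 genes relative to the level. Tnnt2 averaged 3979 ± 96.7 FPKM in erastin and 5254 ± 290 FPKM in control libraries (SD, n = 3 each), 24.3% lower in erastin. Its log2 fold change of -0.40, with an SE of 0.044, passed the test (limma adjusted p = 9.15e-05) and was -0.53 when centred. The direction depends on the scaling. Quantile normalization, which gives each rank the same value in every library, put Tnnt2 higher in erastin by 0.43 on the log2 scale (limma adjusted p = 1.91e-06). Tnnt2 ranked 4 in every erastin library and 7 in every control library, so its quantile values did not vary within a group. That p-value therefore measures no spread of Tnnt2 between libraries, and 0.43 is the step between the values of these 2 ranks. Reads of Tnnt2 numbered 42826 to 47000 per erastin library and 56028 to 78533 per control library. Read counting alone gives a coefficient of variation of 0.472% in erastin and 0.394% in control libraries.

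Tnni3 makes the inhibitory troponin subunit of the heart. It was at 491, 453 and 444 FPKM in erastin replicates 1, 2 and 3, against 958, 932 and 1000.3 FPKM in control replicates 1, 2 and 3. The highest erastin library stood far below the lowest control library. Tnni3 averaged 463 ± 24.8 FPKM in erastin and 963 ± 34.4 FPKM in control libraries (SD, n = 3 each), 52.0% lower in erastin. Its log2 fold change of -1.06 had an SE of 0.046 (limma adjusted p = 5.38e-07) and was -1.19 when centred. Between 3960 and 4387 reads per erastin library and 8842 and 11151 per control library were behind these levels.

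**Figure D2:**
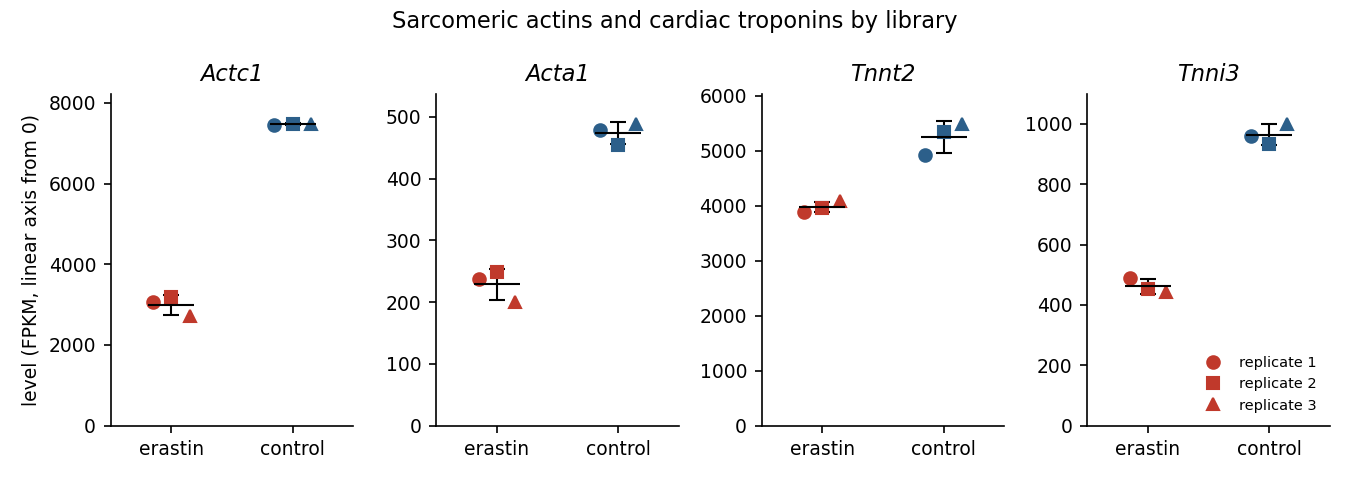
FPKM of each gene in each library on linear axes that start at 0, with erastin libraries in red and control libraries in blue, the mean as a bar and 1 SD (n = 3) as whiskers. No erastin point reaches a control point in any panel, and the gap is smallest relative to the level for Tnnt2, with means of 3979 FPKM in erastin and 5254 FPKM in control libraries.

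Seen against all tested features, Actc1 was the 357th by size of the fall, Tnni3 the 585th, Acta1 the 590th and Tnnt2 the 2280th. Thus 2.62% of tested features fell further than Actc1 and 16.8% fell further than Tnnt2. Among the 100 features with the highest mean level, where 44 fell and 49 rose with limma, Actc1 had the 14th largest fall, Tnni3 the 18th and Tnnt2 the 34th. Acta1, at rank 207 by mean level, lay outside these 100. With centred values 47 of the 100 fell and 42 rose.

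The order of the 4 genes by FPKM was not the same in the 2 groups. In erastin libraries Tnnt2 came first and Actc1 second, while in control libraries Actc1 came first and Tnnt2 second. This swap depends on the division by gene length, since Actc1 had more reads than Tnnt2 in every library. Tnni3 followed and Acta1 was lowest in all 6 libraries. No neighbouring levels in this order overlapped within either group. Among all features of a library, Actc1 ranked 7, 7 and 9 in erastin replicates 1, 2 and 3, against 4 in every control library. Tnnt2 thus stood nearer the top of the library in erastin, although its FPKM fell. Tnni3 ranked 133 to 151 in erastin and 40 to 42 in control libraries. Acta1 ranked 327 to 405 in erastin and 128 to 148 in control libraries.

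**Figure D3:**
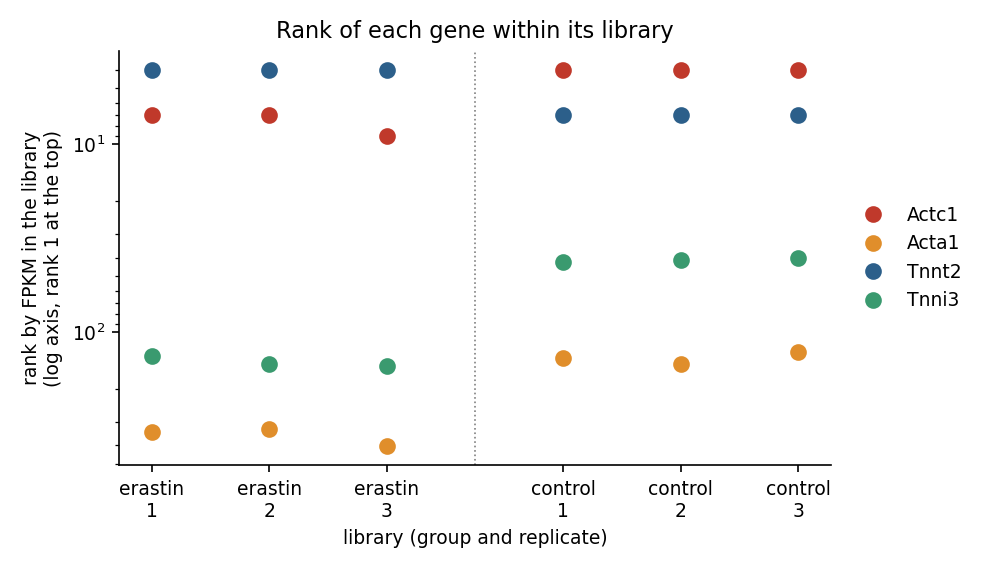
Rank by FPKM within each library on a log axis with rank 1 at the top, erastin libraries left of the dotted line and control libraries right of it. Tnnt2 is at rank 4 and Actc1 at 7 to 9 in erastin libraries, and Actc1 is at 4 and Tnnt2 at 7 in control libraries.

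How unequally the genes fell was tested on the ratio of 2 genes within a library, which does not depend on the library total but can change under quantile normalization, where values are set by rank. Each of the 6 pairs had an exact permutation test (two-sided), for which 0.1 is the smallest p that 3 against 3 libraries can give, so no pair can pass 0.05. In 5 of the 6 pairs the erastin and control libraries did not overlap, and each of these had an exact permutation p of 0.1 (0.12 after Benjamini-Hochberg adjustment over the 6 pairs). The exception was Acta1 with Tnni3. The 6 pairs reuse the same genes, so they are not independent of each other. How often pairs of other features separate in this way was not tested, so 5 of 6 cannot be called unusual. For single tested features, every erastin value lay below every control value in 26.3%. That share covers falls alone, while the pairs could separate in either direction, so it is no benchmark for the 5 of 6.

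In deposited FPKM, Actc1 moved furthest against Tnnt2. The Actc1 level was 0.787, 0.807 and 0.667 times the Tnnt2 level in erastin replicates 1, 2 and 3, against 1.51, 1.40 and 1.36 times in control replicates 1, 2 and 3. Every erastin library was below 1 and every control library above it. Where the ratio lies relative to 1 depends on the division by gene length. In reads recovered from the FPKM values, Actc1 was above Tnnt2 in every library of both groups. The log2 ratio was -0.41 ± 0.15 in erastin and 0.51 ± 0.077 in control libraries (SD, n = 3 each), a difference of -0.92. With quantile normalization the difference was -0.97, and Acta1 and Tnni3 moved further against Tnnt2, by -1.56 and -1.45.

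Within the actins, the skeletal form made up a larger part after erastin in deposited FPKM, but a smaller one with quantile normalization. Acta1 was 7.20%, 7.21% and 6.83% of the summed FPKM of both actins in erastin replicates 1, 2 and 3, against 6.04%, 5.72% and 6.13% in control replicates 1, 2 and 3. The groups were apart by 1.12 percentage points (exact permutation p = 0.1, two-sided), with Actc1 at more than 90% of the sum in every library. The log2 ratio of Acta1 to Actc1 was higher in erastin by 0.27, at -3.71 ± 0.047 in erastin and -3.98 ± 0.055 in control libraries (SD, n = 3 each). With quantile normalization this difference had the opposite sign, at -0.59, on a scale where both genes are set by their ranks. The level of Acta1 itself fell on both scales.

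Within the troponins, the inhibitory subunit fell further than the tropomyosin-binding one. Tnni3 was at 0.126, 0.114 and 0.109 times the Tnnt2 level in erastin replicates 1, 2 and 3, against 0.194, 0.175 and 0.182 times in control replicates 1, 2 and 3. All erastin ratios were below all control ratios. The difference in log2 ratio was -0.66, and -1.45 with quantile normalization. As deposited, the means were -3.10 ± 0.11 in erastin and -2.44 ± 0.077 in control libraries (SD, n = 3 each). The proteins of these subunits sit in 1 complex in equal number, but only transcripts were measured here.

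Across the 2 families, the log2 ratio of Acta1 to Tnnt2 differed by -0.65 and that of Tnni3 to Actc1 by 0.26. With quantile normalization they differed by -1.56 and by -0.47, so the direction for Tnni3 to Actc1 was the opposite. Acta1 and Tnni3 kept nearly the same ratio as deposited: their log2 ratio was -1.02 ± 0.14 in erastin and -1.02 ± 0.021 in control libraries (SD, n = 3 each), a difference of 0.0033 (exact permutation p = 1.0, two-sided). Acta1 was 0.484, 0.548 and 0.450 times Tnni3 in erastin replicates 1, 2 and 3, against 0.50, 0.487 and 0.489 times in control replicates 1, 2 and 3. The erastin libraries lay on both sides of the control ones. Leaving out 1 library moved this difference between -0.073 and 0.068, and quantile normalization gave -0.12, so differences of that size were not resolved.

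**Figure D4:**
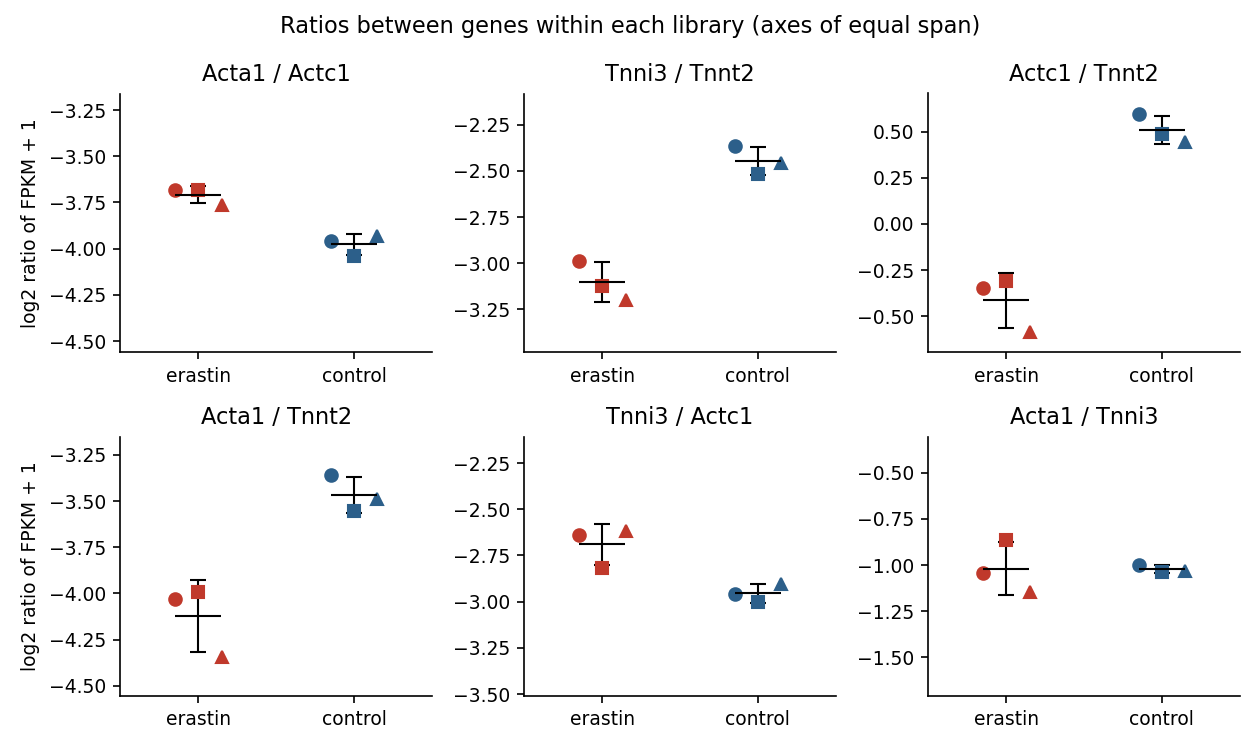
Log2 ratio of FPKM + 1 for each pair of genes within a library, with erastin libraries in red, control libraries in blue, and the mean with 1 SD (n = 3). The vertical axes cover the same span, and the groups overlap in the panel of Acta1 and Tnni3 but in none of the other 5. Under quantile normalization the differences for Acta1 to Actc1 and Tnni3 to Actc1 had the opposite sign, at -0.59 and -0.47.

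The erastin libraries did not rank alike across the 4 genes. Erastin replicate 3 had the lowest Actc1, Acta1 and Tnni3 and the highest Tnnt2 of its group. Erastin replicate 2 had the highest level of both actins. In control, replicate 3 was the highest for all 4 genes, and replicate 2, the deepest library, was the lowest for Acta1 and Tnni3 but not for Actc1 or Tnnt2.

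The 4 genes together held 1.42%, 1.46% and 1.38% of the FPKM of erastin replicates 1, 2 and 3, against 2.53%, 2.63% and 2.67% in control replicates 1, 2 and 3. The difference of the means was -1.19 percentage points (exact permutation p = 0.1, two-sided, the smallest possible). The actins accounted for more of it than the troponins. Both actins together held 0.596 ± 0.051% in erastin and 1.46 ± 0.012% in control libraries, and both troponins held 0.821 ± 0.013% in erastin and 1.15 ± 0.062% in control libraries (SD, n = 3 each). In FPKM, troponins thus outweighed actins in erastin libraries, and actins outweighed troponins in control libraries. This switch depends on the division by gene length. In recovered reads Actc1 stayed above Tnnt2 in erastin replicates 1, 2 and 3, with 50821, 57220 and 45130 reads against 42826, 47000 and 44840. As a share of reads, in which long transcripts weigh more, the 4 genes held 0.909 ± 0.033% in erastin and 1.78 ± 0.033% in control libraries (SD, n = 3 each).

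Other features followed nearly the same pattern over the 6 libraries. Likeness was the Euclidean distance between log2(FPKM + 1) profiles, each centred on its own mean, among the 908 other tested features with a mean of at least 100 FPKM. This measure mostly follows the difference between the groups. The nearest to Actc1 was ENSRNOG00000017914 at a distance of 0.047, with 59.0 ± 4.62 FPKM in erastin and 149 ± 3.11 FPKM in control libraries (SD, n = 3 each), a log2 fold change of -1.32. The nearest to Tnnt2 was ENSRNOG00000008461 at a distance of 0.069, with 134 ± 1.56 FPKM in erastin and 179 ± 12.9 FPKM in control libraries (SD, n = 3 each), a log2 fold change of -0.42. The symbols of both are not paired with their IDs in the files. Among the 4 genes themselves, Tnni3 was the 9th nearest to Acta1 at 0.20, Acta1 was the 33rd nearest to Actc1 at 0.34, and Tnnt2 was the 196th nearest to Actc1 at 1.15. On the deposited scale Tnnt2 was thus set apart from the other 3 by the size of its fall.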

How the data were processed

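Poly(A) RNA of 6 libraries was sequenced as paired ends with strand marking, per the labels' protocols. The submitters' processing notes list HISAT2 2.0.5 and DESeq2 without saying what each was used for. No source used here names the genome build, the annotation or the program that counted reads. The deposited values are FPKM in 1 table of 34052 features, and samples were grouped by their titles. Since every value is divided by its library total, large changes in abundant genes move the values of the rest.

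The test used log2(FPKM + 1) in limma 3.58.1 (R 4.3.3). Its prior was robust and followed a trend, and p-values were adjusted by Benjamini-Hochberg over 13576 features, those that reached 1 FPKM in 3 or more libraries. All 4 genes passed this filter. Folds are ratios of mean FPKM. Whole reads and library totals of 11126968 to 14914827 were recovered from the steps of the FPKM values, with a tolerance of 0.001 read, and served for depth, counting error and a voom alternative. They come from the deposited values, not from a count table. The recovery of reads and the limma test were also run on simulated data, with outcomes not given here. The limma simulation changed far fewer features than changed in these data, so it does not cover shifts of that extent. Single values were compared with exact permutation tests (scipy 1.17.1).

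The 4 genes, the gene lists and the rules were chosen with earlier results of these data known. The rule for naming took the 4 genes and, with no symbols for other IDs, the features nearest in pattern to Actc1 and Tnnt2. The 16 lists of pathway genes and cell type markers were not analysed here for want of symbols. The alternatives were a replicate block, leaving out 1 library at a time, a pseudocount of 0.1 or 0.01, all features above 0, features averaging 5 FPKM or more, centring, quantile normalization, library totals without the 100 most abundant features, a constant prior, an adjusted p under 0.01, and voom. Quantile normalization of the ratios was added after the data were seen.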

Additional observations from a re-analysis of the deposited data

How the results depend on the processing

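Across 17 alternatives each, Actc1, Acta1 and Tnni3 remained lower in erastin past the threshold, with log2 fold changes of -1.45 to -0.54, -1.18 to -0.96 and -1.19 to -1.01. Tnnt2 was lower in 16, at -0.53 to -0.37, and higher by 0.43 with quantile normalization, which sets values by rank. The replicate block, the filters on level, the constant prior and the stricter threshold cannot change a fold change, so they bear only on the p-values. Without the 100 most abundant features in the library totals, Tnnt2 was at -0.48. Changed features numbered 9011, and 7230 to 9308 in the alternatives. The difference in the share held by the 4 genes was -1.19 percentage points of FPKM, and -0.868 points of the recovered reads, which are not divided by gene length. Of the 6 ratios, 5 kept their direction without any 1 library and without a pseudocount. Acta1 to Tnni3 changed sign when 1 library was left out (-0.073 to 0.068). Quantile normalization, added for the ratios after the data were seen, turned Acta1 to Actc1 (-0.59), Tnni3 to Actc1 (-0.47) and Acta1 to Tnni3 (-0.12) negative. It enlarged Tnni3 to Tnnt2 (-1.45) and Acta1 to Tnnt2 (-1.56) and left Actc1 to Tnnt2 at -0.97.

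With the replicate block, 8768 features changed, and the 4 genes stayed past the threshold (limma adjusted p of 1.32e-05 to 0.000802). In ratios paired by replicate number the differences were the same by construction, and the exact sign-flip p was 0.25 for 5 pairs, the smallest that 3 pairs allow, and 1.0 for Acta1 to Tnni3. The labels do not say what a number marks, and the correlations of deviations between libraries of the same number were -0.03, 0.07 and 0.03. The alternatives for count tables were not run, since the values are FPKM. Having 3 libraries a group limits every permutation test to p of 0.1 or more, and the 3192 or more reads behind each level made counting error smaller than the spread between libraries, other than for Actc1 in control libraries.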
